A study of Mus musculus with 8 samples.

Results

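The myotendinous junction is the end of a muscle fibre, where the fibre membrane folds into the tendon and force leaves the muscle. The nuclei that sit there are a specialised kind of myonucleus (a nucleus inside a muscle fibre), and they transcribe genes for the matrix and the adhesion complexes that hold the fibre end. Col22a1 encodes collagen XXII, a collagen that the fibre deposits at this junction and that serves as its usual marker.

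RNA of single nuclei from mouse gastrocnemius (the large muscle of the calf) was sequenced in 8 libraries, and the nuclei described here were chosen by their Col22a1 counts in all 8. A member had Col22a1 at 5 or more UMIs (unique molecular identifiers, 1 per captured RNA molecule) and at 0.2% or more of all its UMIs, with Pdgfra, a receptor gene of fibroblasts, at 1 UMI or fewer. Col22a1 lies at chr15:71795795-72034227 on the minus strand (mm10). Of 64803 nuclei with over 200 and under 6000 genes and under 6% mitochondrial UMIs, 138 were members. The animals were wild-type C57BL/6 mice in 4 groups. Young mice were 3 months old and Old mice 20 months old. Sedentary and Running mice were 11 months old at the start, and Running mice then trained on a treadmill for 2 months. The sex of these animals was not given. Each group had 2 libraries, replicate 1 made with 10x Genomics droplets and replicate 2 with another droplet system, called the second set here. The replicate numbers pair no animals. Since each group held 2 libraries of unlike make, tests measure the spread between these libraries, which may be technical.

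The libraries differed in depth, which bears on a rule that asks for 5 UMIs. The median nucleus had between 1664 and 3001 UMIs in the 10x libraries and between 909 and 1689.5 in the second set, and in each set the Sedentary library was the shallowest. Total UMIs of the retained nuclei ranged from 4765224 in Sedentary replicate 2 to 44389777 in Running replicate 1. The 10x libraries shared between 30 and 46 barcodes a pair, and 1 member, in Running replicate 1, had a barcode that another 10x library also held. The nuclei of the second set carry serial labels, which cannot be compared in this way.

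Running replicate 1 gave 56 members, Young replicate 1 gave 20, Old replicate 1 gave 14 and Sedentary replicate 1 gave 9. From the second set came 19 members of Running, 8 of Young and 6 each of Old and Sedentary. Both Running libraries thus held the most members of their set.

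The limits of the rule cut through a gradient. Nuclei with exactly 5 Col22a1 UMIs numbered 19 inside the rule, and nuclei with exactly 4, alike in the other limits, numbered 23 outside it. Members at 0.2 to 0.25% numbered 31, and nuclei at 0.15 to 0.2% with 5 or more UMIs numbered 26. These neighbours had like medians, 1515 and 1471 UMIs for the first pair and 3830 and 3961 for the second. No nucleus that met the Col22a1 limits had Pdgfra at 2 or more UMIs, so the Pdgfra limit excluded none, and 4 members had 1 Pdgfra UMI.

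The label was checked on genes that the rule did not use, and 14 members went against it. Myonuclear transcripts (15 genes of the sarcomere, calcium release and the fibre myosins) made up between 0.0994 and 0.791% of the UMIs of these 14, under the 1% that was asked of every other myonucleus. In the other 124 members they made up between 1.23 and 16.3%, with a median of 7.10%. Ttn, the giant spring protein of the sarcomere, had between 0 and 5 UMIs a nucleus in the 14 and between 4 and 754 in the 124. The 14 came from Young replicate 1 (10 nuclei) and Old replicate 1 (4 nuclei), and the other 6 libraries had none.

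**Figure D1:**
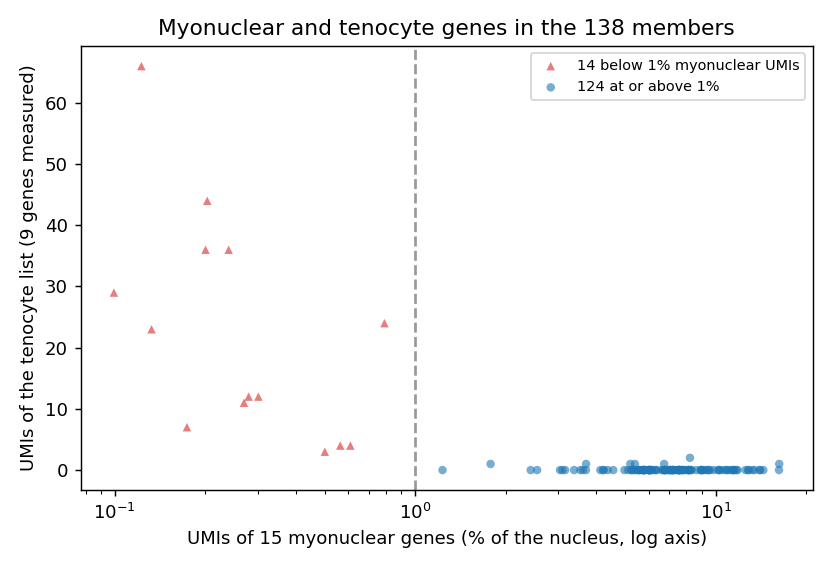
UMIs of the tenocyte list (vertical axis) against the percentage of UMIs from 15 myonuclear genes (horizontal log axis) in each of the 138 members. The 14 nuclei left of the dashed line at 1% hold 3 to 66 tenocyte UMIs, and the 124 to the right hold 0 to 2.

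The 14 nuclei held the genes of tendon and connective tissue cells. A list of tenocyte (tendon cell) genes, of which 9 were measured, had 311 UMIs in the 14 and 8 in the 124. Thbs4, a thrombospondin of tendon matrix, had 135 UMIs in 13 of the 14 nuclei and 1 UMI in the 124. Fmod, a proteoglycan that binds collagen fibrils, had 49 UMIs in 9 of the 14 and 0 in the 124. Col1a1 and Col1a2, the chains of collagen I, had 106 and 123 UMIs in the 14 and 6 and 1 in the 124. Kirrel3, an adhesion molecule, led the list with 364 UMIs in 11 of the 14 and 3 in the 124. These nuclei carried 6 to 42 Col22a1 UMIs, and Ankrd1 was at 0 in all 14. The 14 nuclei are called here by their leading genes, Kirrel3, Thbs4 and Col1a2, and the results below are for the other 124 members unless all 138 are named. The split at 1% was applied to the members after their values were seen.

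In the 124 members with myonuclear transcripts, most lists of genes that mark other cell types were near the level of other myonuclei. The list of fibro-adipogenic progenitors was somewhat above it. Other myonuclei are the 40643 retained nuclei with 1% or more myonuclear UMIs, at most 1 UMI over 23 measured marker genes of other cells, and no membership. The tenocyte list had 8 UMIs where 5.53 were expected from other myonuclei of the same libraries, the endothelial list 14 against 22.01, the macrophage list 12 against 16.4 and the satellite cell list 6 against 4.82. The list of fibro-adipogenic progenitors had 125 against 104, with Dcn at 36 UMIs against 14.8 and Abca8a at 36 against 9.51. Of that list, with Pdgfra counted, 1 nucleus held 47 UMIs. Dcn, Abca8a and some genes of each other list here are among the 23 marker genes that limit other myonuclei. Their expected counts are thus lowered by construction. Lymphocyte genes were at 3 against 3.004, Schwann cell genes at 11 against 10.8, adipocyte genes at 7 against 11.8 and mural cell genes at 161 against 170. A list of fibroblast-like genes at the junction (collagens I, III and VI, Dcn, Ebf1, Lum and Postn) had 110 UMIs against 71.5 in the 124 members, and 733 UMIs in the 14. The marker genes that define other myonuclei by their absence had 104 UMIs in the 124 members against 47.2, a ratio that this limit on other myonuclei raises by its construction. In the 104 of all 138 members with at most 1 UMI over those genes, the share in Running was 3.75 times that in Sedentary, against 4.01 in all members, and the log2 difference of Lama2 from other myonuclei was 5.43, against 5.37.

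The members were then described beside other myonuclei. For each gene the UMIs in members were divided by the UMIs expected if members had the rate of other myonuclei in the same library. The intervals are exact 95% Poisson intervals and cover counting error only. Since the members were chosen on Col22a1 in these nuclei, the ratios carry no test. CPM stands for UMIs per 1000000 of the summed nuclei. Of 3240 genes at a mean of 50 CPM or more in the 124 members, 2.72% were higher in all 8 libraries, 4.41% were lower in all 8 (a gene without a UMI in a small library counts as lower there), and 49.2% had more UMIs than expected. With all 138 members the same shares were 2.39%, 4.29% and 53.2% of 3424 genes. The limit of 50 CPM was set on members alone. Genes low in members can therefore be missing from these shares and from the list counts below.

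Junction genes other than Col22a1 stood far above other myonuclei. Of 22 genes known from the myotendinous junction, 14 besides Col22a1 reached 50 CPM, 13 of them exceeded expectation and 6 were higher in all 8 libraries. Their median ratio was 5.96, and that of all 3240 genes was 0.992. The other 7 lay under 50 CPM and had between 1 and 31 UMIs in the 124 nuclei. Adamtsl1, with 31, had a ratio of 0.140 and is missing from the 14 by that limit. At any level, 19 of the 21 exceeded expectation. Cpm had 1 UMI, Pxdn 2, Itga10 3, Xirp1 and Fstl1 5 each and Tln1 20, and the interval of each of these 6 spans a ratio of 1. Among the 14, Tigd4, a gene derived from a transposon, had the highest ratio, 54.5 (41.4 to 70.5), Slc24a2, a sodium and calcium exchanger, had 26.7, Maml2, a Notch coactivator, 7.81, Ncam1 2.70, Ptprg 2.18 and Utrn, the dystrophin relative utrophin, 1.38.

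Lama2 (chr10:26980036-27619758, minus strand), the alpha 2 chain of the laminin that coats muscle fibres, carried the most UMIs of any junction gene. It had 2891 UMIs in the 124 members where 68.4 were expected, a ratio of 42.2 (40.7 to 43.8), and 116 of 124 nuclei held it. Thinned to 1000 UMIs, 93.5% of members and 9.25% of other myonuclei held a Lama2 UMI. In the 10x set, members had 6924 CPM in Young, 5554 in Old, 6861 in Sedentary and 7645 in Running. The second set gave 8020 CPM in Young, 4238 in Old, 7373 in Sedentary and 6405 in Running. Summed other myonuclei had between 49.2 and 389 CPM in the 8 libraries. Single nuclei were not separated by this gene: 6735 of the 40643 other myonuclei held it, and 8 of the 124 members did not. For all 138 members the log2 difference of Lama2 was 5.37 against other myonuclei and 3.66 against all other retained nuclei, fibroblasts among them.

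Ankrd1 (chr19:36111961-36120099, minus strand), a sarcomere ankyrin repeat protein that is induced by load and stretch, was scarce but concentrated. It had 94 UMIs where 2.36 were expected, a ratio of 39.9 (32.2 to 48.8). Only 31 of the 124 members held it, against 369 of the 40643 other myonuclei. The 10x libraries held 23 UMIs in Young, 4 in Old, 1 in Sedentary and 57 in Running, and the second set held 0, 2, 4 and 3 in that order. In Young replicate 1, 20 of the 23 UMIs came from 1 nucleus. It was above other myonuclei in 7 of 8 libraries, and it had no UMI in Young replicate 2, which allows up to 192 CPM.

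Itgb1 (chr8:128685654-128733200, plus strand), the beta 1 integrin chain that links the fibre membrane to laminin, was raised less and was held by more nuclei. It had 169 UMIs where 44.9 were expected, a ratio of 3.76 (3.22 to 4.37), and 73 of 124 members held it. It was higher in 7 libraries and had no UMI among the 6 members of Old replicate 2, which allows up to 385 CPM. Itga7, its alpha partner in muscle, had a ratio of 4.11 (3.09 to 5.37) and was higher in 5 of 8 libraries.

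**Figure D2:**
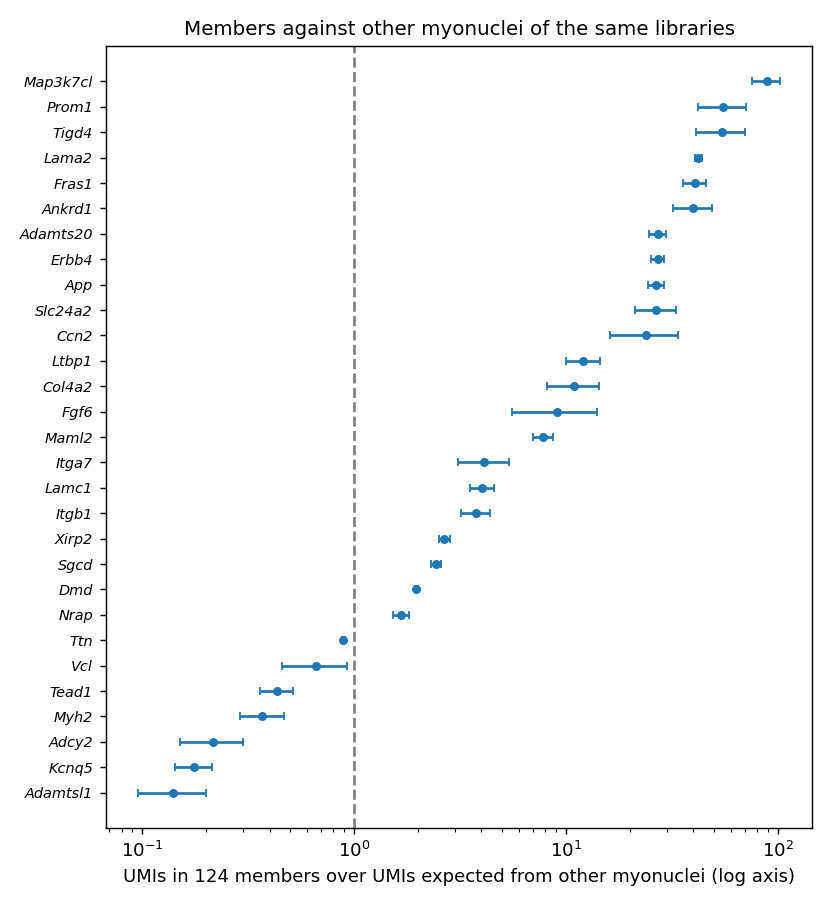
UMIs in the 124 members over the UMIs expected from other myonuclei of the same libraries, on a log axis, for 29 genes with exact 95% Poisson intervals. The dashed line marks no difference: Map3k7cl lies at 88.7, Lama2 at 42.2, Dmd at 1.97, Ttn at 0.891 and Adamtsl1 at 0.140.

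Genes outside the junction list, picked by size, stood as far above other myonuclei. Map3k7cl, a gene named after the kinase TAK1, had 170 UMIs where 1.92 were expected, in 45 of the 124 nuclei, with 25 in 1 nucleus. Its ratio was 88.7 (75.9 to 103), the highest of the 20 genes picked by size and by the same direction in all 8 libraries. In Old replicate 2 it had 1 UMI. Prom1, a protein of membrane protrusions, had 61 UMIs against 1.10, a ratio of 55.3 (42.3 to 71.1). Edar, the ectodysplasin receptor, had a ratio of 27.5 (20.1 to 36.8). Erbb4, a neuregulin receptor, had 739 UMIs against 27.3, a ratio of 27.1 (25.2 to 29.1), in 65 of the 124 nuclei, with 112 of these UMIs in 1 nucleus. App, the amyloid precursor protein, had 510 UMIs against 19.1, a ratio of 26.7 (24.5 to 29.2), in 87 nuclei. Nol4, Med12l, Nav3, Rgcc, Atp13a5, Jam2 and Atp10a were also among the 20, with ratios between 10.4 and 36.0. Slc24a2, Frmpd4, A230057D06Rik, Ccn2 and Ltbp1 complete the 20 beside Lama2, Fras1 and Adamts20.

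Genes of the basement membrane, the sheet of laminin and collagen IV that the junction anchors to, were mostly above expectation. All 9 of 25 listed genes that reached 50 CPM in members exceeded expectation, 3 of them in all 8 libraries, with a median ratio of 5.46. At any level 18 of the 25 did. Fras1, a matrix protein that joins epithelia and basement membrane, had 261 UMIs and a ratio of 40.6 (35.9 to 45.9). Adamts20, a secreted metalloprotease, had 473 UMIs and a ratio of 27.1 (24.7 to 29.7). Col4a2 had a ratio of 10.9 (8.11 to 14.3) and Col4a1 4.38 (2.81 to 6.51), the chains of collagen IV. Lamc1, the gamma 1 chain that pairs with the Lama2 product, had a ratio of 4.04 (3.52 to 4.60). Hspg2, which encodes perlecan, had a ratio of 3.69 (3.02 to 4.47), and Lamb2 had the lowest of the 9, 1.56.

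The membrane complexes that bind this matrix moved less. Of 14 dystrophin complex genes at the limit, 8 exceeded expectation, with a median ratio of 1.13, and at any level 10 of 18 did. Of the 14, 2 were higher in all 8 libraries. Those 2 were Dmd, dystrophin itself, at 1.97 (1.94 to 2.001) with 13622 UMIs, and Sgcd, delta-sarcoglycan, at 2.44 (2.32 to 2.57). Sntb1, which encodes a syntrophin, was lowest at 0.487. Of 15 focal adhesion genes at the limit 10 exceeded expectation, with a median of 1.55, and at any level 18 of 29 did. Of the 15, 1 was higher in all 8 libraries. That 1 was Tns1, tensin 1, at 2.82 (2.48 to 3.20). Itgb1bp2, which encodes the integrin-binding protein melusin, was lowest at 0.403, and Vcl and Tln2, vinculin and talin 2, followed at 0.661 and 0.705. Vcl was lower in 6 of 8 libraries and its direction turned under some settings.

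Genes of load response and of the sarcomere end were mixed. Of 13 at the limit, 9 exceeded expectation, with a median of 1.67, and at any level 11 of 20 did. Pdlim3, an actin-associated LIM protein, was the 1 of the 13 higher in all 8 libraries. Xirp2, an actin-binding protein of the fibre end, had 1157 UMIs at 2.67 (2.52 to 2.83), and Nrap, which links actin to the membrane, had 479 at 1.67 (1.52 to 1.82). Flnc, filamin C, had a ratio of 2.04 (1.75 to 2.37), and Pdlim5 was lowest at 0.816.

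Signalling genes of the TGF-beta family and its targets were raised in part. Of 14 genes of TGF-beta, BMP and their inhibitors at the limit, 10 exceeded expectation, with a median of 1.59. At any level 13 of 20 did, and 2 of the 14 were higher in all 8 libraries. These were Ltbp1, which holds latent TGF-beta in the matrix, at 12.1 (10.0 to 14.5) and Tgfb2, a TGF-beta ligand, at 5.62 (4.88 to 6.43). Smad7, an inhibitor of the pathway, had a ratio of 6.23 (4.55 to 8.34), and Smad3, a signal carrier, 0.806 (0.592 to 1.07). Bmpr1a, a BMP receptor, was at 0.846.

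A list of YAP and TEAD genes, transcription regulators that respond to tension, and of their partners and targets had 9 genes at the limit. Of these, 7 exceeded expectation, with a median of 1.28, 2 of them (Ccn2 and Crim1) in all 8 libraries. At any level 9 of the 16 measured genes exceeded expectation. Ankrd1 belongs to this list too. Ccn2, which encodes connective tissue growth factor, had 31 UMIs and a ratio of 23.9 (16.2 to 33.9), in all 8 libraries. Tead1 itself was lower in all 8 libraries at 0.432 (0.358 to 0.516), as was Amotl1, which binds YAP, at 0.737. Of 7 genes at the limit in a list of ligands and receptors between muscle, nerve and tendon, 5 exceeded expectation, with a median of 1.72. At any level 16 of 25 did. Epha4, an ephrin receptor, had a ratio of 23.9 (17.1 to 32.4), and Nrg4, a neuregulin, was the 1 member higher in all 8 libraries at 2.75. Fgf6, a muscle growth factor just under 50 CPM, had a ratio of 9.11 (5.57 to 14.1) from 20 UMIs in 17 nuclei. The receptors Fgfr1 and Fgfr2 were lowest at 0.641 and 0.718.

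A marker promoter is shown because Ankrd1 is among the YAP and TEAD targets just described. The 250 bases before the start of Ankrd1 (RefSeq, GRCm38.p6, chr19:36119845-36120094, minus strand) are printed 5′ to 3′ beside those of Lama2 (chr10:27616943-27617192, minus strand), the junction gene with the most UMIs. These starts are RefSeq's, while gene positions are GENCODE's, whose bounds reach further upstream, so both stretches lie inside the gene positions given. Capitals mark the letters CATTCC or, on the other strand, GGAATG, the core of a TEAD site.
Ankrd1: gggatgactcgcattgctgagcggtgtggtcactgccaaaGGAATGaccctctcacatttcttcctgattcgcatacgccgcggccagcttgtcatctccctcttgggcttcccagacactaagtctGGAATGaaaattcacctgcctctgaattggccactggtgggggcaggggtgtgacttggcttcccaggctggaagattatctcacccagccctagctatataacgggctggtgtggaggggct
Lama2: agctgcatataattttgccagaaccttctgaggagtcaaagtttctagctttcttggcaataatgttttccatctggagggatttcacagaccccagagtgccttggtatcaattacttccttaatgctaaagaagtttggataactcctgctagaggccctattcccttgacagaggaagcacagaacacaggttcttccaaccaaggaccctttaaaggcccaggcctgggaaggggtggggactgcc
The Ankrd1 stretch held 2 matches, which began 210 and 123 bases before the start, and the Lama2 stretch held 0. Among 32851 promoters of the same length, 12.6% held 1 or more matches and 1.02% held 2 or more. Of the 20 genes picked above, 14 had a promoter in this table and 2 of these held a match. Both shown stretches held 1 match to CANNTG, the letters of an E-box that muscle regulators bind, on both strands, which was present in 66.2% of the promoters, and in Ankrd1 it began 111 bases before the start, clear of the other matches. A match is a description of letters and not a bound site.

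Genes of the contractile fibre were all present in members, below the level of other myonuclei. All 15 myonuclear genes had fewer UMIs than expected, with a median ratio of 0.713. Ttn was 0.891 (0.878 to 0.904), lower in all 8 libraries, and Neb, nebulin, 0.978 (0.947 to 1.01). Genes lower in all 8 libraries by the same rule of size included Bsg, the basigin chaperone of lactate transporters, at 0.445 (0.296 to 0.644), with no UMI in 4 of the 8 libraries. Adcy2, an adenylyl cyclase, was at 0.215 (0.1501 to 0.2997), Pfkfb3, a regulator of glycolysis, at 0.214 (0.160 to 0.280) and Kcnq5, a potassium channel, at 0.176 (0.143 to 0.213). Agbl1 was at 0.205, Stard7 at 0.438, Bmpr1b at 0.323 and Kcnab1 at 0.297. Adamtsl1, on the junction list, went the other way from its list at 0.140 (0.0954 to 0.199) and was lower in all 8 libraries.

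Genes of core glycolysis were mostly below expectation. Of 13 at the limit, only Gapdh exceeded it, at 1.20, with a median of 0.851, and at any level 5 of 21 did. Ldha, lactate dehydrogenase A, had 86 UMIs against 112, a ratio of 0.771 (0.617 to 0.952). Gpi1 was lowest at 0.559 and lower in all 8 libraries. Of the DNA repair and proteostasis genes that the study named from these samples, 1 of 8 and 1 of 7 exceeded expectation, with medians of 0.760 and 0.848. These lists were chosen on these samples. Of 5 genes of regeneration and denervation at the limit 2 exceeded expectation (Runx1 at 4.49 and Ncam1), and at any level 6 of 16 did. Fbxo32, an atrophy ligase, was lower in all 8 libraries at 0.299. The neuromuscular junction list had 230 UMIs against 123. Of its 2 genes at 50 CPM, Vav3 had a ratio of 16.8 from 117 UMIs, and Musk, the receptor kinase of the synapse, 1.14.

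Fibre type was read from the leading myosin heavy chain, the one with most UMIs, at 3 or more and untied. Of 113 members with one, 102 led with Myh4 (type IIb), 10 with Myh1 (IIx), 1 with Myh2 (IIa) and 0 with Myh7 (type I). From the shares in other myonuclei of each library, 98.0, 9.02, 5.16 and 0.823 were expected. The counts of Myh4 and Myh1 were within a few nuclei of those values. The planned test needed 20 such members in a library, which 1 library had, so no p-value is given. On UMIs, Myh2 had a ratio of 0.369 (0.289 to 0.465) and Myh7 0.272 (0.130 to 0.5002), both lower in all 8 libraries. Myh2 had no UMI in Old, Young and Sedentary replicate 1. Myh7 had 10 UMIs, 5 of them in Young replicate 2, and none in Young and Running replicate 1 or Old and Sedentary replicate 2. In Young replicate 1 other myonuclei held 0.0839 CPM of Myh7, so lower could hardly fail there.

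In nuclei pooled over libraries, several junction genes, Lama2 and Fras1 among them, were higher at each step of Col22a1 share. This held also below the limit of the rule. Other junction genes were not higher at each step. In myonuclei with 2500 or more UMIs, 15554 had no Col22a1 UMI. Across the 6 steps of Col22a1 share, Lama2 stood at 65.9, 456, 1996, 4986, 7134 and 8121 CPM. Fras1 stood at 7.44, 31.0, 139, 451, 588 and 914. Ankrd1 stood at 5.05 at the lowest step and 256 at the highest, and Tigd4 at 0.694 and 226. Adamts20 stood at 64.2 at the lowest step, reached 1072 at 0.1 to 0.2% and was 1180 at the top. Itgb1 stood at 112 at the lowest step and 492 at the highest. Utrn, which encodes utrophin, went back and forth between 31.3 and 61.4, Ncam1 was highest at 0.1 to 0.2% with 91.4 and stood at 49.2 at the top, and Cpm was at 0 in the top 3 steps. Ttn stood between 45314 and 51532 over all steps, and Dmd at 19521 at the bottom and 36268 at the top. The steps between 0 and 0.2% hold nuclei that the rule left out. The top 2 steps hold 41 and 21 nuclei. The mix of libraries shifts over the steps. Running replicate 1 gave 4625 of the 15554 nuclei at the lowest step and 26 and 14 of those in the top 2. The second set gave none at the highest. Steps within single libraries were not compared.

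**Figure D3:**
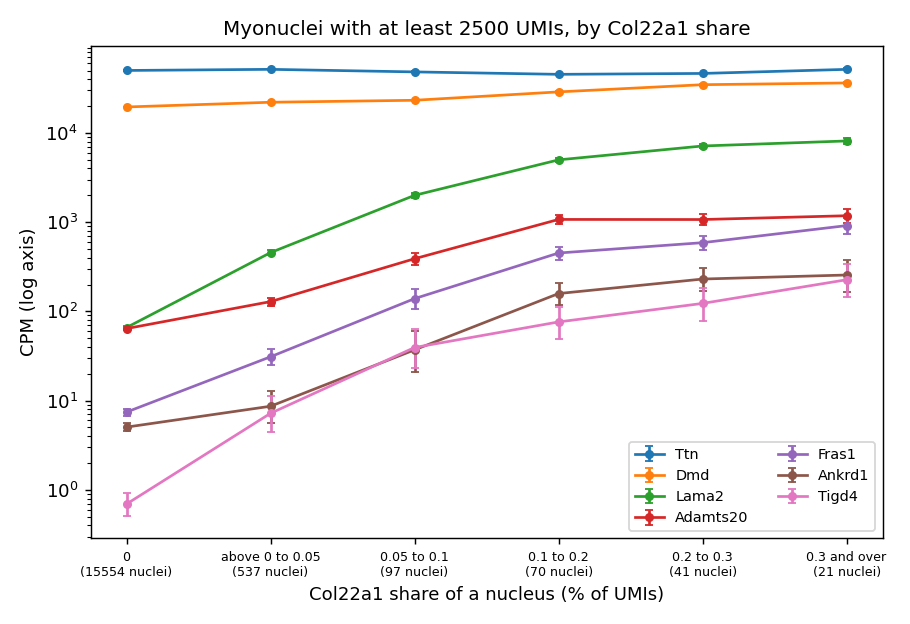
CPM of 7 genes (log axis, bars are exact 95% Poisson intervals) in myonuclei with 2500 or more UMIs, pooled over libraries, by Col22a1 share of the nucleus. Lama2 goes from 65.9 to 8121 and Fras1 from 7.44 to 914 across the 6 steps, and Ttn stays between 45314 and 51532.

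Over all members and other myonuclei of a library, the genes most like Col22a1 by the Spearman correlation of per-nucleus shares were Lama2 (median 0.223 over 8 libraries), App (0.213), Tigd4 (0.187), Map3k7cl (0.182) and Pdzd2 (0.173). Rgcc, Bcl2, Usp6nl, Fras1 and Med12l followed at 0.1502 to 0.161. These are weak values across nuclei that share library and depth, and most nuclei have no UMI of these genes. Only genes at 50 CPM or more in members were ranked. Members, chosen on Col22a1, were among the nuclei correlated, so the ranking draws on the rule's own gene. The values are a description.

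The 124 members varied among themselves. Their depth ran from 777 to 18103 UMIs, with a median of 2537.5, and their Col22a1 share from 0.202 to 1.16%, with a median of 0.313%. Lama2 made up between 0 and 1.89% of a nucleus, with a median of 0.598%, and 8 of the 124 held none. Within members, Spearman's correlation of the Col22a1 share with the Lama2 share was 0.128 over 124 nuclei. The number of the 21 other junction genes with a UMI ran from 0 to 16, with a median of 7. The 31 members with Ankrd1 had a median of 2669 UMIs and the 93 without it 2379. Of those with Ankrd1, 27 were in the 10x set, as were 58 of those without it. Summed within that set, members with Ankrd1 had 9249 CPM of Lama2 and 1959 of Adamts20 and those without it 6158 and 1012, while Itgb1 stood at 427 and 461. In the second set, the 4 with Ankrd1 had 6211 CPM of Lama2 and 0 of Adamts20, and the 35 without it 6564 and 373.

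Whether age or exercise went with the share of members was compared first. In the 10x set members were 0.431% of retained nuclei in Running, with a 95% Wilson interval of 0.332 to 0.559%, and 0.0850% (0.0447 to 0.161%) in Sedentary. In the second set they were 0.449% (0.288 to 0.701%) in Running and 0.142% (0.0650 to 0.309%) in Sedentary. Both Running libraries lay above the other 6, which did not exceed 0.177%. Running over Sedentary was 5.07-fold in the 10x set and 3.17-fold in the second, or 4.01-fold over both (n = 2 libraries a group). The exact permutation test, two-sided, gave p = 0.3333, the smallest that 2 libraries against 2 can give, so this design cannot reach 0.05. As a share of members plus other myonuclei the difference was 6.47-fold and 3.49-fold.

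**Figure D4:**
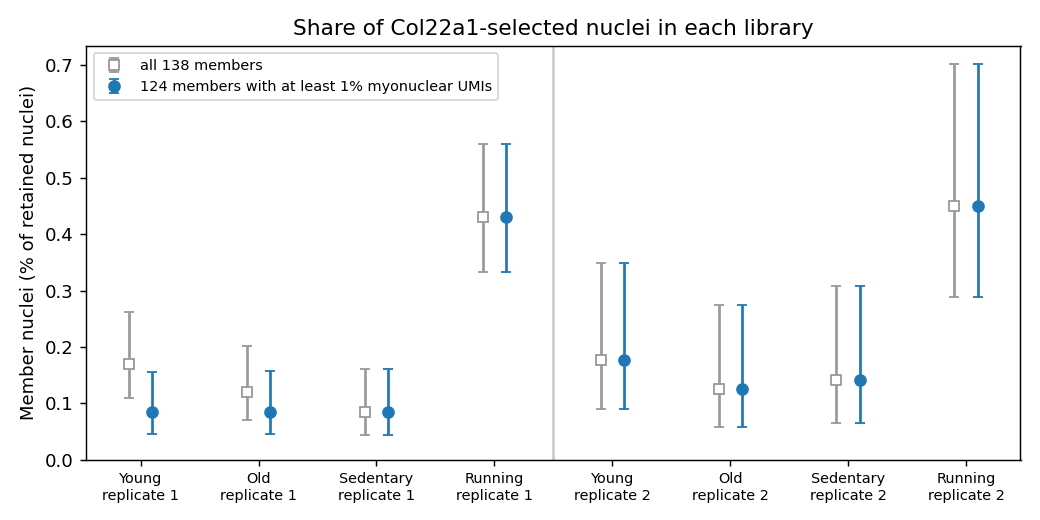
Members as a percentage of retained nuclei in each library, all 138 members as open squares and the 124 with myonuclear transcripts as filled circles, with 95% Wilson intervals (counting error only). Running replicate 1 at 0.431% and Running replicate 2 at 0.449% lie above the other 6 libraries, and the 2 symbols differ only in Young and Old replicate 1.

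The Sedentary library was the shallowest of each set, and neither Running library was the deepest. Median UMIs were 3001 in Young and 2805 in Running of the 10x set, and 1689.5 and 1400.5 in the second. Among nuclei with 2500 or more UMIs, where 0.2% is at least 5 UMIs, members were 0.541% (0.398 to 0.736%) of 7389 nuclei in Running replicate 1 and 0.156% (0.0669 to 0.366%) of 3195 in Sedentary replicate 1. In the second set they were 4 of 634 nuclei in Running and 0 of 142 in Sedentary, where a count of 0 allows up to 2.11%. After every nucleus was thinned to 1000 UMIs, with shallower nuclei left out, the expected share with 2 or more Col22a1 UMIs was 0.801% and 0.399% in Running and Sedentary of the 10x set and 1.16% and 1.21% in the second set. With 5 or more it was 0.115% and 0.0166% in the 10x set and 0.113% and 0.127% in the second. After thinning, Running stood above Sedentary in the 10x set at both limits, and below it in the second set. Thinning left out 2292 nuclei of Sedentary replicate 1 and 1074 of Running replicate 1. It left out 2508 nuclei of Sedentary replicate 2 and none of Running replicate 2. The part of depth in the shares was not tested.

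Free RNA was measured as background. Nuclei marked as endothelial, a cell type that should lack Col22a1, were searched for Col22a1 UMIs. In the 10x set 1.003% of 299 Young, 0.714% of 420 Old, 4.42% of 113 Sedentary and 0.465% of 215 Running nuclei held one. Their median depths were 1630 to 2160 UMIs, and each of these shares stands for only a few nuclei. Of other myonuclei there, 0.886% of Young, 2.87% of Old, 4.09% of Sedentary and 6.11% of Running nuclei held one, at median depths of 1759 to 3522. None of 1047 endothelial nuclei in the 10x set met the Col22a1 limits, which allows a share of up to 0.287%. The second set held 6 such nuclei, all in Old replicate 2, so this background was in effect not measured there. Other myonuclei held Col22a1 at 4.56 to 68.1 CPM.

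By age, members were 0.1198% in Old and 0.170% in Young of the 10x set and 0.126% and 0.177% in the second. The ratio was 0.708 over both sets (exact permutation p = 0.3333, the smallest possible), and the Wilson intervals overlapped in each set. Without the 14 nuclei led by Kirrel3 the 10x shares were 0.0856% in Old and 0.0848% in Young, a ratio of 1.01 in that set and 0.846 over both (exact permutation p = 1).

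Gene levels in members were compared between groups on counts summed per library (edgeR, quasi-likelihood test, Benjamini-Hochberg adjusted p under 0.05, library set as a term). The plan asked for 20 members in each library, and only Young and Running replicate 1 had them, so all 8 libraries were used with no minimum, a choice made after the counts were seen. In all 138 members 0 of 760 genes (0%) passed for Old against Young, with 28 genes at an unadjusted p under 0.05 and 1 call by DESeq2. For Running against Sedentary 0 of 760 (0%) passed, with 35 genes at an unadjusted p under 0.05 and 0 by DESeq2. In the 124 members 2 of 621 genes (0.322%) passed for Old against Young, and 38 had an unadjusted p under 0.05. For Running against Sedentary 0 of 621 (0%) passed, and 36 had an unadjusted p under 0.05.

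The 2 calls in the 124 members were Fam155a, an auxiliary subunit of a sodium leak channel, and Frmpd4, a scaffold protein of synapses. Fam155a had 25 UMIs in Old replicate 1 and 13 in Old replicate 2, and 0 in both Young libraries. Set against a floor of 3 UMIs in each Young library, the Old level was 6.20-fold in the 10x set and 8.68-fold in the second (edgeR adjusted p = 0.00365). The floor covers the counting of UMIs and not which nuclei were sampled, so these folds are no lower bounds. All 25 UMIs of Old replicate 1 came from 1 nucleus, and the 13 of Old replicate 2 from 2. The other groups held it in every library, with 31 and 1 UMIs in Sedentary and 13 and 11 in Running members. Frmpd4 had 55 and 9 UMIs in the Old libraries and 2 and 4 in the Young, 3.31 ± 0.81 (SE) higher in Old on the log2 scale (edgeR adjusted p = 0.0397), and 1 nucleus held 42 of its 173 UMIs. With all 138 members both had an edgeR adjusted p of 0.0538. Neither gene is on the junction list. Left out in turn, Young replicate 1 and Young replicate 2 each took the call from Fam155a (edgeR adjusted p = 0.115 and 0.178), and Frmpd4 kept it only without Old replicate 2 (0.0220).

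The junction genes themselves did not pass in either comparison. Of the 9 listed junction genes other than Col22a1 that were tested in the 124 members, 0 were called, 3 were above 0 for Old minus Young and 7 for Running minus Sedentary. Their medians were -0.52 and 0.04 on the log2 scale, and those of all 621 genes -0.12 and 0.01. Lama2 differed by -0.52 ± 0.48 (SE) between Old and Young and by 0.09 ± 0.47 between Running and Sedentary. For Ankrd1 the values were -1.46 ± 1.25 and 0.04 ± 1.15, for Fras1 -0.97 ± 0.80 and 0.04 ± 0.71, and for Itgb1 -0.26 ± 0.85 and -0.04 ± 0.72.

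Of 5 basement membrane genes tested 0 were called, with medians of -0.52 and 0.09 for the 2 comparisons. Of Ldha and the 16 genes the study named, 6 were tested and 0 called. Ldha had 11 and 3 UMIs in Young members, 9 and 2 in Old, 1 and 2 in Sedentary and 43 and 15 in Running, replicate 1 before replicate 2, too few for the test.

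Of 22 listed core glycolysis genes, 6 were tested in the 124 members. All 6 were above 0 for Running minus Sedentary, 4 of them with an unadjusted edgeR p under 0.05, and none was called. Of all 621 genes tested, 314 were above 0 and 36 had an unadjusted p under 0.05. The median of the 6 was 1.78 on the log2 scale, and that of all 621 genes 0.01. The 5 genes with the smallest p for this comparison that went the same way in both sets were Prr33, Mylpf, Gm19299, Ckmt2 and Acta1, none of them called. Mylpf, the fast regulatory light chain, had 880 CPM in Running and 193 in Sedentary members of the 10x set, and 1903 and 534 in the second set (log2 difference 2.14 ± 0.69 SE, edgeR adjusted p = 0.482). Other myonuclei moved the same way, with 847 and 121 in the 10x set and 1656 and 1097 in the second. Acta1, skeletal actin, had 1388 and 270 in members of the 10x set and 3243 and 1603 in the second, and other myonuclei had 1818 and 332, and 4114 and 2302.

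Whether a condition moved members unlike other myonuclei was tested as an interaction on 16 sums. In the 138 members 3 of 760 genes (0.395%) passed for age, Kirrel3, Ebf1 and Fat3, all lower in Old. In members, 364 of 367 Kirrel3 UMIs, 345 of 388 Ebf1 UMIs and 159 of 297 Fat3 UMIs came from the 14 nuclei with tendon genes. In the 124 members Kirrel3 and Ebf1 had too few UMIs to be tested and Fat3 was not called (edgeR adjusted p = 0.478), and 2 of 621 (0.322%) passed, Lama2 and Erbb4. For exercise 0 of 760 and 0 of 621 (0%) passed, with 14 and 14 genes at an unadjusted p under 0.05.

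For Lama2, other myonuclei had 164 CPM in Old and 49.2 in Young of the 10x set, and 389 and 296 in the second set, higher in Old in both. Members were lower in Old in both sets, by the levels given above. The Old minus Young log2 difference in members minus that in other myonuclei was -1.69 ± 0.42 (SE, edgeR adjusted p = 0.0191). For Erbb4, members had 281 CPM in Old and 1133 in Young of the 10x set and 3725 and 3144 in the second, and other myonuclei had 43.7 and 21.99, and 436 and 109. The same interaction was -2.34 ± 0.53 (SE, edgeR adjusted p = 0.00678). Over all 138 members neither passed, with -1.62 (adjusted p = 0.124) for Lama2 and -2.11 (0.0824) for Erbb4 by edgeR. With each library left out in turn, the edgeR adjusted p of Lama2 ran from 0.0313 to 0.957 and that of Erbb4 from 0.00838 to 0.525. The call of Lama2 held only without Sedentary replicate 2, and that of Erbb4 without Sedentary replicate 1 or 2. Free RNA was not removed, and its part in the levels of other myonuclei was not tested.

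**Figure D5:**
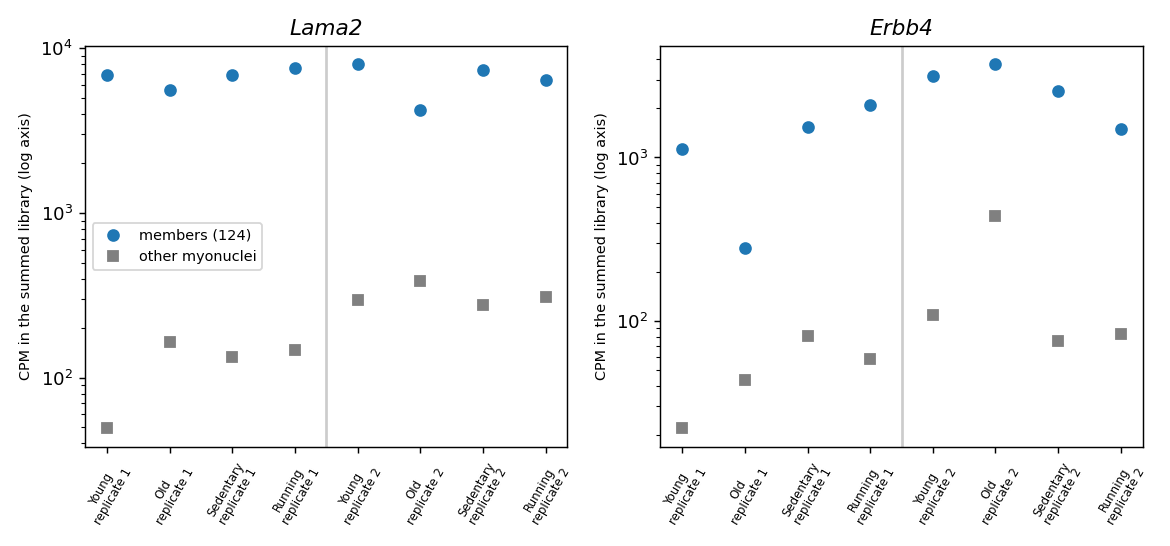
Lama2 and Erbb4 in CPM (log axis) in the summed members (124, circles) and other myonuclei (squares) of each library. Lama2 in members stays between 4238 and 8020, and in other myonuclei it runs from 49.2 in Young replicate 1 to 389 in Old replicate 2.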

How the data were processed

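Nuclei of frozen gastrocnemius were sequenced in 8 libraries. For the 10x set the authors used Cell Ranger (6.1.2, mm10), and the deposited files hold UMI counts per gene and nucleus, not normalized. Whether intronic reads were counted is not given in the sources used here. Of 65280 deposited nuclei, 64803 passed the filters. Doublets were left in, with no caller run. Sums left out 12 mitochondrial and 85 ribosomal protein genes (21110 kept). No label says that libraries came from separate animals.

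The members and gene lists were chosen with earlier results of these data known. Members against other myonuclei are a description. Conditions were tested on counts summed per library with edgeR 4.0.16 (TMM, quasi-likelihood, group and library set as terms), with DESeq2 1.42.0 as an alternative, under R 4.3.3, and checked on simulated data. The planned minimum of 20 members a library left too few libraries. Shares were compared by exact permutation tests (scipy 1.17.1), with 95% Wilson intervals. Intervals and floors (3 counts) cover counting error only.

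Named were all junction genes, the highest and lowest of each list, the 20 highest and 10 lowest genes by median log2 difference with 1 sign in all 8 libraries, called genes or the 5 with the smallest p, and the 10 most like Col22a1. Other genes named were chosen after their values were seen. Alternatives changed scaling, filters, the member rule, depth, the block and single libraries.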

Additional observations from a re-analysis of the deposited data

Results flagged for a closer look

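In 5 cases a test of the difference itself found that age went with a gene's level unlike in members and in other myonuclei (edgeR quasi-likelihood interaction, Benjamini-Hochberg adjusted, log2 Old minus Young in members minus the same in other myonuclei). Over all 138 members these were Kirrel3 at -5.02 ± 0.93 (SE, adjusted p = 0.000584), Ebf1 at -3.84 ± 0.78 (adjusted p = 0.00186) and Fat3 at -4.90 ± 1.25 (adjusted p = 0.0475). The 14 nuclei under 1% myonuclear UMIs, of which 10 were in Young replicate 1 and 4 in Old replicate 1, held most UMIs of all 3 genes. Over the 124 members they were Erbb4 at -2.34 ± 0.53 (adjusted p = 0.00678) and Lama2 at -1.69 ± 0.42 (adjusted p = 0.0191), and without Young replicate 1 they stood at -2.20 (adjusted p = 0.525) and -1.37 (adjusted p = 0.957). With 1 library left out, the call of Erbb4 held only without Sedentary replicate 1 or 2, with values from -2.72 to -2.20, and that of Lama2 only without Sedentary replicate 2, with values from -2.12 to -1.37.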

How the results depend on the processing

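The log2 ratio of the member share in Running over Sedentary kept its direction under each alternative that gave a value, but the fold of 4.01 was 2.14 with 3 or more Col22a1 UMIs, 1.39 with nuclei thinned to 1000 UMIs and 2 or more (0.960 in the second set) and 2.49 when thinned with 5 or more (0.895 in the second set). For Old over Young it turned to 0.15 with 3 or more Col22a1 UMIs, to 0.013 with 0.4% or more, and to 0.56 with nuclei thinned to 1000 UMIs and 2 or more. Calls for Old against Young in all 138 members (0 as reported) were 4 with no scaling factors and 4 with upper quartile scaling (Fam155a, Fat3, Frmpd4, Kirrel3), 3 with Pdgfra at 0, 2 with only the 4 libraries compared, 2 without members holding markers of other cells, 2 with 1% or more myonuclear UMIs and 1 by DESeq2. With 1 library left out they ran from 1 to 4, the 4 without Young replicate 2. The interaction for age (3 calls) gave 0 with no class by library set term, and from 0 (without Young replicate 1) to 8 (without Young replicate 2) with 1 library left out. For exercise it gave 0 to 1, the 1 without Sedentary replicate 2. Without the library set as a term (no replicate block), both comparisons had 0 calls, and the replicate numbers pair no animals. Leaving out the scaling factors moved the median of all genes for Running minus Sedentary from 0.06 to -0.04, but it was 1.28 with no filter on low counts, 0.61 with 0.4% or more Col22a1 and 0.43 without Sedentary replicate 1. Against all other retained nuclei, the log2 difference of Cpm was -1.06, of Pxdn -0.69, of Fstl1 -0.57 and of Utrn -0.93. Without members holding markers of other cells, that of Pxdn was -0.11 and of Fstl1 -1.89. That of Vcl was 0.41 when thinned and ran from -0.57 without Young replicate 1 to 0.43 without Running replicate 1, with 0.0069 without Old replicate 1. The causes were not tested. Minimums of 10 and 20 members could not be fitted. With 10 Col22a1 UMIs, 3 libraries held 0 members, and with 0.4% Sedentary replicate 1 held 0, so no ratio was given there.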
